A study of Mus musculus with 6 samples.

Results

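The genes described here are 10 nucleolar genes of ribosome biogenesis: NOLC1, NCL, NPM1, FBL, NOP56, NOP58, DKC1, POLR1A, UBTF and TCOF1. They were found by Ensembl identifier among the 30543 genes of the deposited count table, and all 10 were among the 15736 genes tested. NOLC1 heads the list because it was labelled in the study's own volcano plot of the same libraries, so its change below is not independent evidence. CFPAC-1 cells, a human pancreatic adenocarcinoma (PAAD) line, were transfected with si-KRT7, a siRNA that targets KRT7, or with the si-Control siRNA, and 3 libraries were made from each. KRT7 encodes a keratin of simple epithelia, and the comparison asks how a siRNA against it changes the transcriptome. The paper reports the knockdown by RT-qPCR in CFPAC-1 cells, whereas the level of KRT7 in these libraries was not analysed here. Both groups came from this single line and carried a transfected siRNA. The time after transfection is not given in the sources used here. The paper's supplement lists siRNA duplexes against KRT7, but not which of them was used for the sequenced libraries. The labels do not say whether the replicates were separate cultures. The study speaks of independent experiments in a caption that spans several assays, the RNA-seq plots among them, without saying what a sequenced replicate was. The p-values measure the spread between these libraries, which may be technical in part.

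Ribosome biogenesis starts in the nucleolus, where RNA polymerase I transcribes the long precursor of the ribosomal RNAs. Small nucleolar ribonucleoproteins (snoRNPs) then modify this precursor: box C/D particles methylate riboses, and box H/ACA particles convert uridines to pseudouridines. Fast-growing tumour cells generally carry enlarged nucleoli. The 10 genes cover the chaperones and abundant multifunctional proteins of the nucleolus (NOLC1, NCL, NPM1), the box C/D core (FBL, NOP56, NOP58), the box H/ACA core (DKC1) and the RNA polymerase I machinery (POLR1A, UBTF, TCOF1).

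Polyadenylated RNA was sequenced, and the libraries held between 28208896 and 36315802 counts. Levels are given as CPM, the counts of a gene scaled to a common library size, after TMM normalization over all 6 libraries. CPM is not divided by gene length, so levels are compared between libraries and not between genes. Library si-KRT7 replicate 2 stood apart: its mean chi-square per gene against si-KRT7 replicates 1 and 3 was 79.6 and 61.6, whereas these differed from each other by 5.70 and the si-Control libraries among themselves by 3.70 to 5.48. By the same measure it lay nearer to each si-Control library, at 39.3, 44.6 and 33.0 against replicates 1, 2 and 3, than to either library of its own group. It was still far from si-Control, as the rest of its group was. Against si-Control replicates 1, 2 and 3, si-KRT7 replicate 3 stood at 40.5, 41.1 and 48.8, and si-KRT7 replicate 1 at 49.2, 47.8 and 59.1. This measure grows with depth, and si-KRT7 replicate 2 held the fewest counts. Its correlation of log2 CPM was 0.9819 and 0.9825 with si-KRT7 replicates 1 and 3. With the si-Control libraries its correlation was 0.9857 to 0.986, where si-KRT7 replicates 1 and 3 had 0.9833 to 0.9864. Results are therefore given with and without si-KRT7 replicate 2. The sample labels name the mouse, whereas all gene identifiers are human. The level of KRT7 and the markers of the cell line were not analysed here, because no table used here pairs the other identifiers with gene names.

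In si-KRT7 cells NOLC1 rose 2.34-fold, and it was the only one of the 10 that passed the adjusted p limit of 0.05 in edgeR's quasi-likelihood test. Across all genes tested, 2.07% passed this limit in either direction, 0.712% as higher and 1.35% as lower in si-KRT7 cells. With an absolute log2 fold change over 1 added, NOLC1 still passed, as did 0.292% of all genes. Among the other 9 genes the log2 fold change lay between -0.09 for NOP56 and 0.36 for TCOF1. Their 95% intervals, derived from the F statistic of the fit, reached from 0.799-fold to 1.49-fold at the widest, so that none of them included a 2-fold change in either direction.

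NOLC1 (ENSG00000166197) encodes a phosphoprotein that shuttles between the nucleolus and Cajal bodies, binds both classes of snoRNP and acts as their chaperone. Its level was 95.9, 93.5 and 92.3 CPM in si-Control replicates 1, 2 and 3. In si-KRT7 replicates 1, 2 and 3 it was 227, 207 and 227 CPM. Every si-KRT7 library was thus far above every si-Control library, and si-KRT7 replicate 2, although lowest of its group, stood at 220% of the si-Control mean beside 242% and 241% in replicates 1 and 3. The means were 93.9 ± 1.81 CPM (SD, n = 3) and 220.1 ± 11.4 CPM (SD, n = 3). The log2 fold change was 1.23 (standard error 0.07, 95% interval 1.06 to 1.40, adjusted p = 6.06e-04 in edgeR).

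In bulk RNA a change in some of the cells and one in all of them cannot be told apart. The change rested on large counts, with 2905 to 3383 reads in si-Control and 5689 to 8422 reads in si-KRT7 libraries. Counting error alone gives a coefficient of variation of at most 1.86% at these depths, close to the 1.92% seen among the si-Control libraries. In the fit across all genes NOLC1 had the third smallest p, ranking 3 of 15736. By size of increase it ranked 104 of all genes tested, and 10 of the 12462 genes that averaged at least 50 reads over the libraries. An exact 2-sided permutation of the libraries gave p = 0.1, below which 3 against 3 cannot go. Without si-KRT7 replicate 2 the log2 fold change was 1.27 (95% interval 1.19 to 1.34), and in the fits that left out any other library it lay between 1.20 and 1.24.

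**Figure D1:**
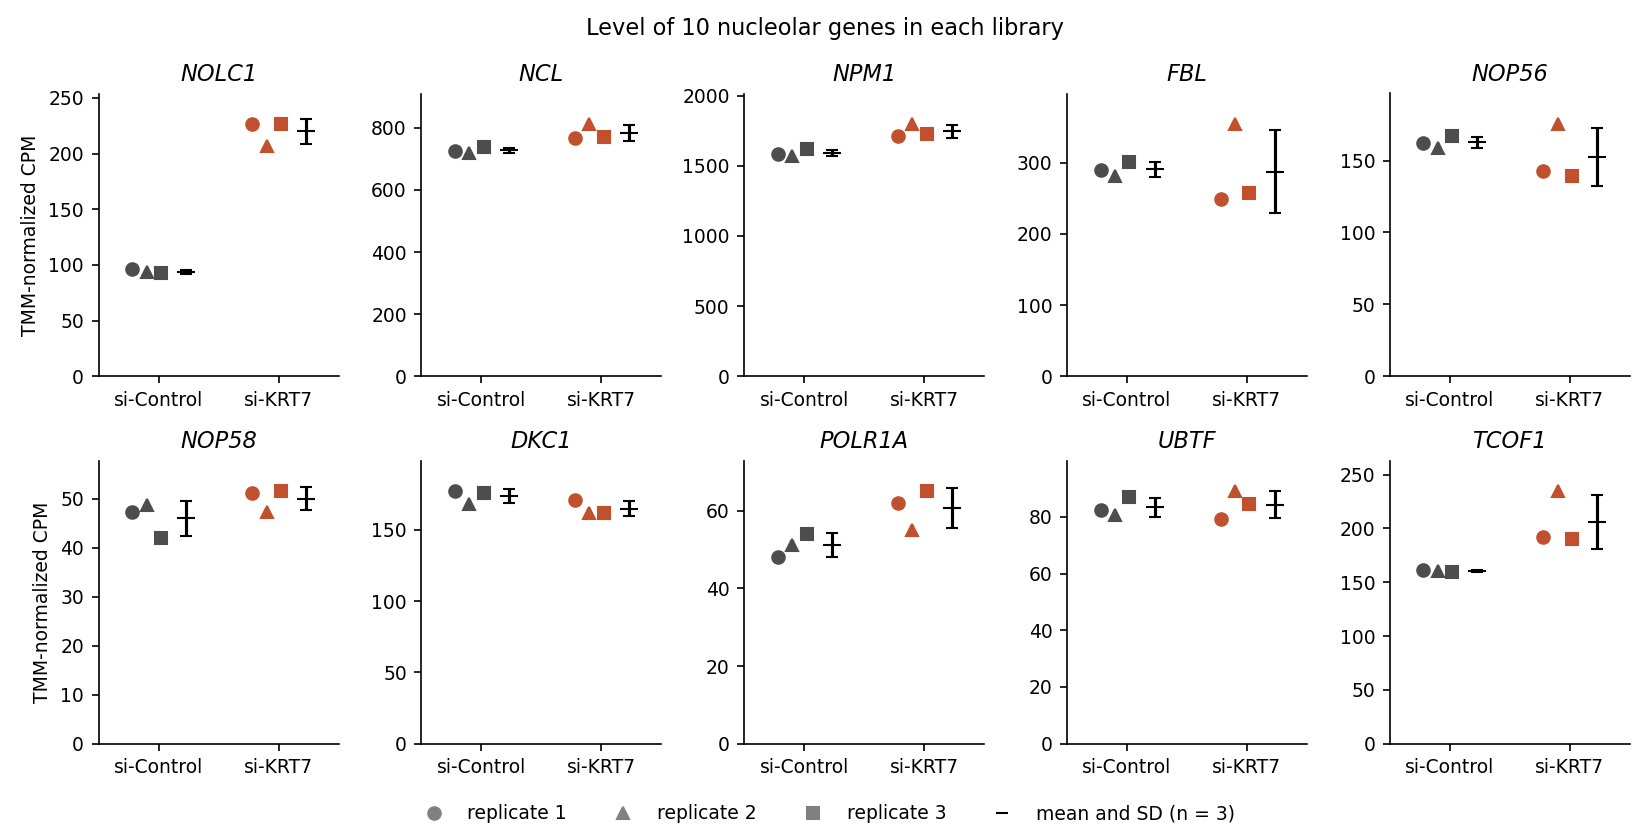
Level of each gene in the 6 libraries, in TMM-normalized CPM on a linear axis that starts at 0 and is scaled per gene. Symbols mark replicates 1, 2 and 3 of si-Control (grey) and si-KRT7 (orange), and bars give the mean and SD of 3 libraries. The NOLC1 libraries fall at 92.3 to 95.9 CPM and at 207 to 227 CPM, with no overlap.

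NCL (ENSG00000115053) encodes nucleolin, an abundant RNA-binding protein of the nucleolus that takes part in rRNA transcription and processing. Its level was 726, 720 and 737 CPM in si-Control replicates 1, 2 and 3 and 766, 813 and 769 CPM in those of si-KRT7. The groups did not overlap, and the difference was small: the log2 fold change was 0.11 (95% interval -0.04 to 0.25, adjusted p = 0.424 in edgeR).

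NPM1 (ENSG00000181163) encodes nucleophosmin, the histone chaperone that structures the outer granular layer of the nucleolus, where ribosomal subunits assemble. It stood at 1583, 1572 and 1617 CPM in si-Control and at 1711, 1800 and 1728 CPM in si-KRT7 replicates 1, 2 and 3. These values did not overlap either, with a log2 fold change of 0.13 (95% interval -0.0047 to 0.27, adjusted p = 0.285 in edgeR). NPM1 has many near-identical processed pseudogenes, and how the counting assigned reads between such copies is not given in the sources used here. The ratio of NPM1 to NCL counts, into which no scaling factor enters, was 2.19 ± 0.01 in si-Control and 2.23 ± 0.02 in si-KRT7 libraries (SD, n = 3 each). Both genes stood highest in si-KRT7 replicate 2, where NCL was at 112% and NPM1 at 113% of the si-Control mean.

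**Figure D2:**
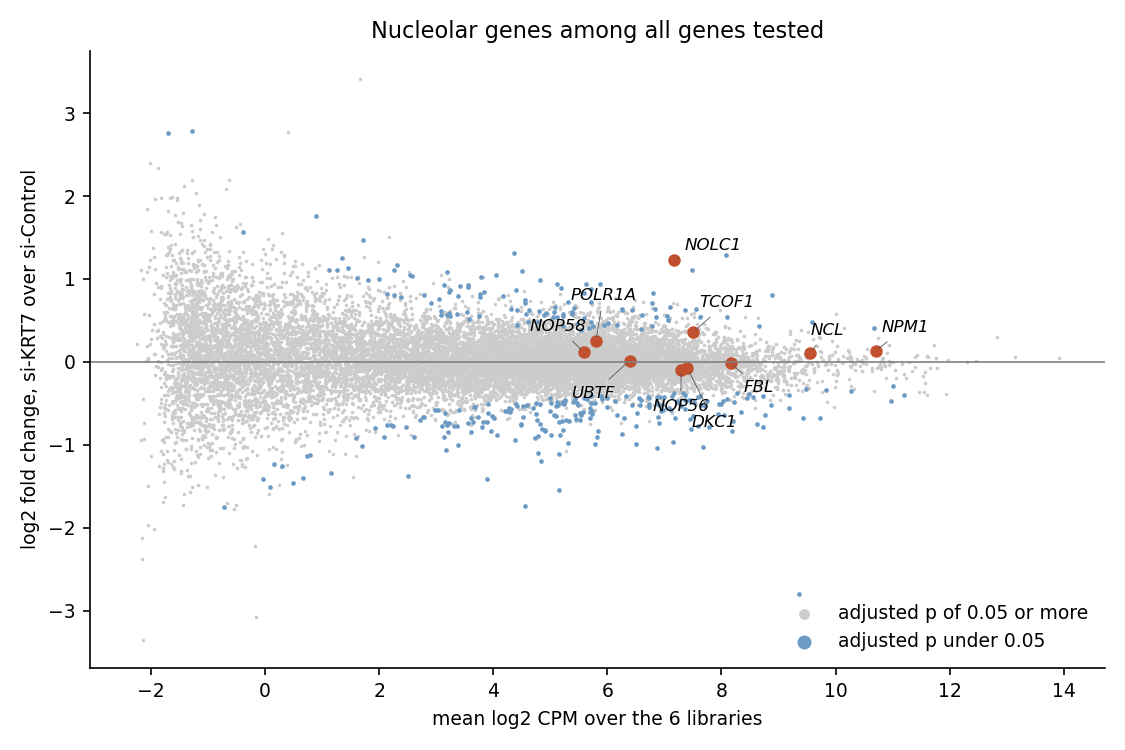
Log2 fold change of si-KRT7 over si-Control against mean log2 CPM for the 15736 genes tested, with adjusted p under 0.05 in blue and the 10 nucleolar genes in orange whatever their p. NOLC1 lies at 1.23, while the other 9 lie between -0.09 and 0.36.

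None of the box C/D genes passed the limit with all 6 libraries. FBL (ENSG00000105202) encodes fibrillarin, the methyltransferase of the box C/D particle. In si-Control replicates 1, 2 and 3 it stood at 289, 281 and 301 CPM. In si-KRT7 replicates 1 and 3 it stood lower, at 249.5 and 258 CPM, whereas replicate 2 stood at 355 CPM, above all others. The SD among si-KRT7 libraries was 58.5 CPM (n = 3), against 10.3 CPM (n = 3) among si-Control libraries, and the log2 fold change was -0.02 (95% interval -0.32 to 0.29, adjusted p = 0.966 in edgeR).

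NOP56 (ENSG00000101361) and NOP58 (ENSG00000055044) encode the paired scaffold proteins of the same particle. NOP56 showed the pattern of FBL: 162, 159 and 167 CPM in si-Control replicates 1, 2 and 3, and 142, 176 and 139 CPM in those of si-KRT7. Again si-KRT7 replicates 1 and 3 lay below every si-Control library and replicate 2 above every one of them (log2 fold change -0.09, 95% interval -0.32 to 0.14, adjusted p = 0.669 in edgeR).

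NOP58 lay at 47.3, 48.8 and 41.9 CPM in si-Control and at 51.2, 47.3 and 51.5 CPM in si-KRT7 replicates 1, 2 and 3. Its groups overlapped through si-KRT7 replicate 2, and the log2 fold change was 0.12 (95% interval -0.09 to 0.33, adjusted p = 0.532 in edgeR). In the libraries where FBL and NOP56 stood low, si-KRT7 replicates 1 and 3, NOP58 stood highest. The ratio of NOP58 to NOP56 counts was 0.360 and 0.369 in these libraries and 0.269 in si-KRT7 replicate 2, with 0.251 to 0.307 in si-Control libraries.

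DKC1 (ENSG00000130826) encodes dyskerin, the pseudouridine synthase of the box H/ACA particle, which is also part of telomerase. It stood at 177, 168 and 176 CPM in si-Control replicates 1, 2 and 3 and at 171, 162 and 162 CPM in those of si-KRT7. All si-KRT7 libraries lay below the si-Control mean of 174 CPM, but the groups overlapped. The log2 fold change was -0.08 (95% interval -0.24 to 0.09, adjusted p = 0.613 in edgeR). Per DKC1 read there were 0.540 ± 0.016 NOLC1 reads in si-Control and 1.33 ± 0.06 in si-KRT7 libraries (SD, n = 3 each).

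Of the RNA polymerase I genes, TCOF1 came nearest to the limit. TCOF1 (ENSG00000070814) encodes treacle, a nucleolar phosphoprotein with acidic and basic repeats related to those of NOLC1, which works with UBTF in rRNA gene transcription. TCOF1 stood at 161, 160 and 160 CPM in si-Control replicates 1, 2 and 3. Its si-KRT7 values were 192, 234 and 191 CPM. The groups did not overlap, and replicate 2 was farthest from si-Control, at 146% of its mean beside 120% and 119% in replicates 1 and 3. The log2 fold change was 0.36 (95% interval 0.14 to 0.58) with an adjusted p of 0.0979 in edgeR, so TCOF1 missed the limit after adjustment over all genes. The DESeq2 Wald test, with a log2 fold change of 0.36, gave an adjusted p of 0.0253, under the limit. Over all alternatives the adjusted p ran from 2.63e-06 in edgeR without si-KRT7 replicate 2 to 0.364 in edgeR without si-Control replicate 3.

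POLR1A (ENSG00000068654) encodes the largest catalytic subunit of RNA polymerase I. Its level was 48.0, 51.2 and 54.1 CPM in si-Control and 62.0, 55.0 and 65.0 CPM in si-KRT7 replicates 1, 2 and 3. The groups did not overlap, although si-KRT7 replicate 2 lay just above the highest si-Control library. The log2 fold change was 0.25 (95% interval 0.03 to 0.47, adjusted p = 0.217 in edgeR).

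UBTF (ENSG00000108312) encodes the HMG-box factor that keeps rRNA genes open and recruits the polymerase. It stood at 82.6, 80.6 and 87.2 CPM in si-Control and at 79.4, 89.1 and 84.5 CPM in si-KRT7 replicates 1, 2 and 3. These ranges lay over each other, with a log2 fold change of 0.01 (95% interval -0.17 to 0.20, adjusted p = 0.946 in edgeR), which is a fold between 0.887 and 1.15. Per UBTF read there were 1.95, 1.99 and 1.83 TCOF1 reads in si-Control libraries and 2.41, 2.63 and 2.26 in si-KRT7 libraries, with no overlap. The ratios of POLR1A to UBTF and of TCOF1 to POLR1A did overlap between the groups.

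**Figure D3:**
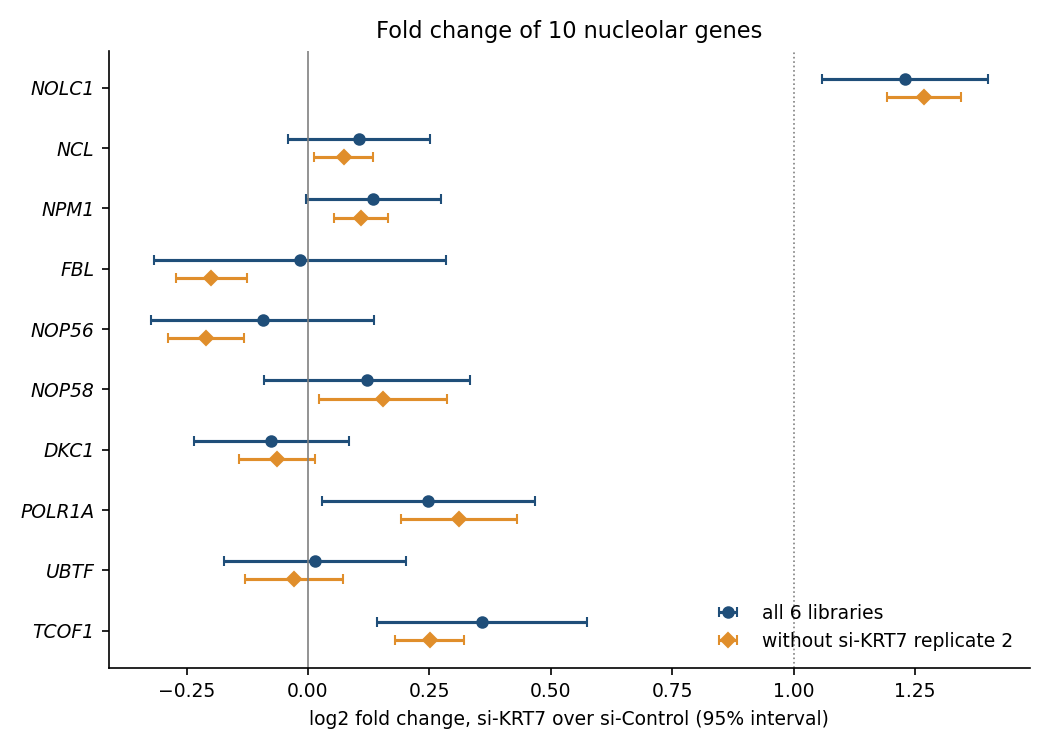
Log2 fold change of each gene with its 95% interval from edgeR, with all 6 libraries (circles) and without si-KRT7 replicate 2 (diamonds, 3 against 2 libraries). The solid line marks no change and the dotted line a log2 fold change of 1. The NOLC1 interval of 1.06 to 1.40 lies above those of the other 9 genes, the highest of which ends at 0.58.

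The difference between NOLC1 and the other 9 genes was examined within libraries, as ratios of counts. The ratio of NOLC1 to each of them was higher in every si-KRT7 than in every si-Control library, with a log2 difference between 0.88 against TCOF1 and 1.33 against NOP56. NOLC1 reads were 2.76% to 2.93% of the summed reads of the other 9 genes in si-Control libraries. In si-KRT7 replicates 1, 2 and 3 they were 6.62%, 5.54% and 6.57%. An exact 2-sided permutation test put each of these 9 ratios at p = 0.1, the lowest value possible, with an adjusted p of 0.146 over the 16 ratios computed. All 9 share the NOLC1 count, and NOLC1 was listed because it was labelled in the study's plot of these libraries. They therefore restate its increase without a scaling factor and are not independent evidence. The other 7 ratios, between genes of related roles, had an exact p of 0.1 for TCOF1 to UBTF and for NPM1 to NCL, and of 0.3 to 0.9 for the rest.

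Counted over the list, 5 of the 10 genes had no overlap between the groups, and all 5 were higher in si-KRT7 cells: NOLC1, NCL, NPM1, TCOF1 and POLR1A. Among all genes tested, 24.4% did not overlap, 11.3% as higher and 13.0% as lower. The 10 genes ranked high in mean level among the genes tested, from percentile 71.1 for NOP58 to 99.7 for NPM1. The share over all genes is therefore not that of genes of like level. The median log2 fold change was 0.11 over the 10 genes and 0.11 over the 9 without NOLC1, beside 0.01 over all genes tested. Together the 10 genes took 0.332% to 0.338% of the counts of a si-Control library and 0.374% to 0.384% of those of a si-KRT7 library. NPM1 is the largest part of this share, with means of 1591 CPM in si-Control and 1746 CPM in si-KRT7 libraries. Both NPM1 and NOLC1, the latter at 93.9 and 220.1 CPM, entered its increase. FBL, NOP56 and DKC1 had log2 fold changes below 0. Without NOLC1 the summed level was 3278, 3240 and 3342 CPM in si-Control replicates 1, 2 and 3. In si-KRT7 replicates 1, 2 and 3 it was 3425, 3731 and 3448 CPM. No test was made on these list values.

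Library si-KRT7 replicate 2 was the one farthest from the other si-KRT7 libraries in 8 of the 10 genes, all but DKC1 and UBTF. Over all genes tested this held for 68.0%. The side on which it stood differed by gene. For NCL, NPM1, FBL, NOP56 and TCOF1 replicate 2 lay above the other si-KRT7 libraries, and for NOLC1, NOP58 and POLR1A it lay below them.

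Without si-KRT7 replicate 2, 7 of the 10 genes passed the adjusted p limit in edgeR, 5 higher and 2 lower, where 42.9% of the 16202 genes then tested did so (20.9% higher, 22.0% lower). Here too the share over all genes takes in genes of lower level than the 10. The common biological coefficient of variation was 0.0485 in this fit and 0.130 with all 6 libraries. Because si-KRT7 replicate 2 was left out for its deviation in these same data, a smaller spread follows by construction. For this reason the adjusted p-values of this fit, with 3 si-Control and 2 si-KRT7 libraries left, overstate the evidence. The genes lower in the remaining 2 si-KRT7 libraries were FBL (log2 fold change -0.20, adjusted p = 7.21e-05 in edgeR) and NOP56 (-0.21, adjusted p = 7.16e-05 in edgeR). The genes higher beside NOLC1 were POLR1A (0.31, adjusted p = 1.15e-04 in edgeR), TCOF1 (0.25, adjusted p = 2.63e-06 in edgeR), NPM1 (0.11, adjusted p = 0.00202 in edgeR) and NCL (0.07, adjusted p = 0.0464 in edgeR). NOP58 (0.15, adjusted p = 0.0526), DKC1 (-0.06, adjusted p = 0.191) and UBTF (-0.03, adjusted p = 0.675) did not pass in edgeR. With this library left out NOLC1 was again the only gene of the 10 that also passed an absolute log2 fold change of 1, as did 2.20% of the genes tested, and the others stayed between 0.865-fold for NOP56 and 1.24-fold for POLR1A.

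**Figure D4:**
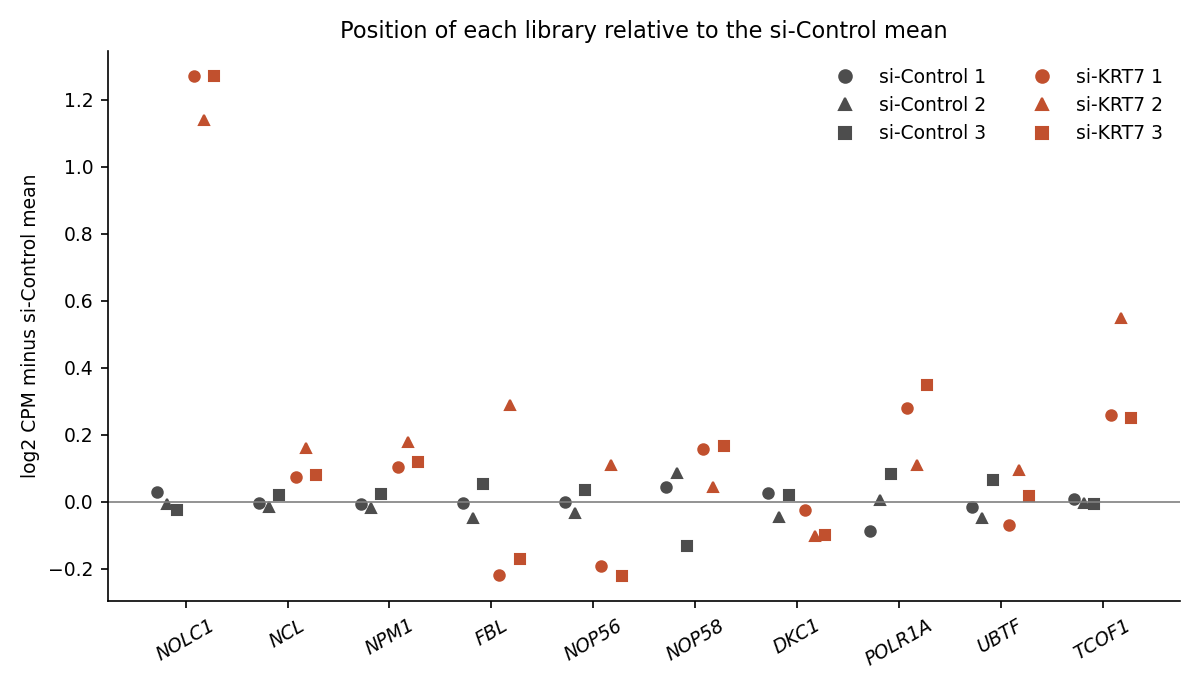
Log2 CPM of each library minus the mean of the 3 si-Control libraries, for each gene, with si-Control in grey, si-KRT7 in orange and the replicate given by the symbol. For FBL the si-KRT7 triangle (replicate 2) stands at 0.29 and the other si-KRT7 libraries at -0.22 and -0.17, while for NOLC1 all 3 stand between 1.14 and 1.27.

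The pattern of NOLC1 over the 6 libraries was compared with that of 12452 other genes with a mean of at least 50 counts, by the root mean square difference of log2 CPM centred on each gene's own mean. The closest was ENSG00000167460, with a difference of 0.05 and a log2 fold change of 1.29. It stood at 176, 172 and 171 CPM in si-Control and at 437, 416 and 417 CPM in si-KRT7 replicates 1, 2 and 3, so that it too was high in replicate 2. ENSG00000180626 followed, with a difference of 0.12 and 1.34 to 1.86 CPM in si-Control against 3.45 to 4.12 CPM in si-KRT7 libraries. Within the list TCOF1 was the most like NOLC1, with a difference of 0.46, and NOP56 the least, with 0.68. With 6 libraries that fall into 2 groups, this likeness mainly reflects a similar fold change.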

How the data were processed

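Whole-number read counts per gene were deposited by the authors for 6 libraries, without normalization. The submitters' processing notes name STAR 2.7.11b and the mouse build GRCm39, whereas the 30543 identifiers are human Ensembl genes. The counting tool and annotation are not given in the sources used here. Symbols were taken from the definition of the gene list for its 10 members only. Of the identifiers, 0 matched the mouse name tables used, so lists of further ribosome biogenesis genes and cell type markers were not analysed.

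The analysis used edgeR 4.0.16 under R 4.3.3: filterByExpr, TMM over all 6 libraries, glmQLFit, glmQLFTest, and Benjamini-Hochberg adjustment over 15736 genes. The limit was an adjusted p of 0.05. Log2 CPM used a prior count of 2. The standard error was the log2 fold change divided by the square root of F, and 95% intervals used the t quantile of the fit. The alternatives included DESeq2 1.42.0 and limma 3.58.1. The scripts were tested on simulated counts with a common dispersion for all genes and no deviating library. That test therefore does not cover a library such as si-KRT7 replicate 2. Every member was named, and the 2 genes most like NOLC1 were chosen by a rule of distance with a mean of at least 50 counts. The members and lists were chosen with earlier results of these data known. Depth was 28208896 to 36315802 counts per library, and counting error covers reads, not molecules.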

Additional observations from a re-analysis of the deposited data

How the results depend on the processing

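The increase of NOLC1 passed the adjusted p limit in all 15 alternatives run for it, with a log2 fold change between 1.20 and 1.27 and an adjusted p of at most 0.0193 (edgeR, without si-Control replicate 3). The number of the 10 genes past the limit, 1 with all libraries, was 2 (2 higher) without a filter on counts and 2 (2 higher) in the DESeq2 Wald test, NOLC1 and TCOF1 in each case. It was 6 (4 higher, 2 lower) in limma-voom with sample quality weights, which gave si-KRT7 replicate 2 a weight of 0.0973 and the other libraries 1.20 to 2.11. With each of the 6 libraries left out in turn it ran from 1 to 7 (1 to 5 higher, 0 to 2 lower), and only leaving out si-KRT7 replicate 2 gave a value above 1. Fits without a si-Control library left only 6, 6 and 10 calls over all genes, and those without si-KRT7 replicate 1 or 3 left 87 and 36. The number 1 in these fits therefore says little about the other genes.

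Genes with an adjusted p under 0.05 over the whole table numbered 325. The number was 1347 without a filter, 1153 in the DESeq2 Wald test, 6858 with sample quality weights, 46 with the fold change limit and 6 to 6944 with a library left out. The cause was not tested, other than the fold change limit, which acts by construction. With the replicate block it was 76, and NOLC1 was still called (log2 fold change 1.23, adjusted p = 0.00364 in edgeR). The deviations of same-numbered libraries correlated at 0.0520, -0.0798 and -0.0728, not every library correlated best with its own number, and the labels state no pairing, so the number was not taken as one.

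Near 0, directions changed. FBL, at -0.02 on the log2 scale, was 3.2e-04 with library size only and ran from -0.20 to 0.073 with a library left out (0.01 without si-Control replicate 3, 0.073 without si-KRT7 replicate 1, 0.05 without si-KRT7 replicate 3). UBTF, at 0.01, was -0.0063 with sample quality weights, -0.012 without si-Control replicate 2 and -0.029 without si-KRT7 replicate 2, in a range of -0.029 to 0.054. The alternatives planned for further ribosome biogenesis lists were not run, for want of gene names.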
